A study of Homo sapiens with 12 samples.

Results

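The genes that encode the proteins of the cytosolic ribosome were followed across 12 RNA sequencing libraries of HMLE, an immortalised human mammary epithelial cell line. Members were the gene rows with an RPL or RPS symbol and a number, together with RPLP0, RPLP1, RPLP2 and RPSA, that were present in all 4 deposited tables. This gave 84 of 26357 gene rows, 52 of the large and 32 of the small subunit. HMLE-Twist cells carry TWIST1, a transcription factor that drives the epithelial to mesenchymal transition, and are labelled EMT. HMLE-pBp cells carry the control vector and are labelled nonEMT. Each line was treated for 24 h with 0.2 uM salinomycin, a potassium ionophore, or with DMSO as the mock, with 3 biological replicates in each of the 4 groups. The labels do not say whether a line is 1 clone or how the vector is driven.

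Each eukaryotic ribosome takes up its proteins in nearly equal numbers, and the genes for them are among the most strongly transcribed of a growing cell. Their mRNAs characteristically begin with a C followed by a run of pyrimidines, the 5′ terminal oligopyrimidine (TOP) tract, through which mTORC1 and the RNA-binding protein LARP1 control their translation and stability. Several members have paralogs, named with an L or L1 at the end, some of which can take the partner's place in the ribosome.

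Transcription start sequences are shown first, because these mRNAs are known for a pyrimidine start. They are 30 bases of genome sequence from RefSeq (build GRCh38.p14), from 10 bases before a listed start to 20 bases from it onward, 5′ to 3′ on the strand of the gene. Capitals mark a C followed by at least 4 further C or T, with the C within 5 bases of the start. Only the gene's own strand was searched. A sequence with no capitals has no such run in that window.
RPS27, chr1:153990752-153990781, plus strand: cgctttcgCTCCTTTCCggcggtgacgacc
RPS27L, chr15:63157458-63157487, minus strand: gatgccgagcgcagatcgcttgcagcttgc
RPL26, chr17:8383174-8383203, minus strand: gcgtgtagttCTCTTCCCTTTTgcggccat
RPL26L1, chr5:172958719-172958748, plus strand: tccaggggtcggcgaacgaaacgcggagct
RPL22, chr1:6199576-6199605, minus strand: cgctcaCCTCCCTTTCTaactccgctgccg
RPL22L1, chr3:170870176-170870205, minus strand: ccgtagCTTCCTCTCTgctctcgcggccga
RPL7L1, chr6:42879606-42879635, plus strand: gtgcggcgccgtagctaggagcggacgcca
RPSA, chr3:39406710-39406739, plus strand: tgccgcctgtCTTTTCCgtgctacctgcag
RPLP0, chr12:120201092-120201121, minus strand: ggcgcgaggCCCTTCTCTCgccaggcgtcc
RPL35A, chr3:197950180-197950209, plus strand: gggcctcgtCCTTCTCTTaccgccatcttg
RPS6, chr9:19380217-19380246, minus strand: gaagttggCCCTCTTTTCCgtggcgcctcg
RPS4X, chrX:72277229-72277258, minus strand: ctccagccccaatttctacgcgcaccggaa

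Of 67 members with a start in the RefSeq table, 54 (80.6%) had such a run at a listed start, against 25.2% of all 27305 genes in that table and 29.7% of the 8874 that passed the expression filter. Among the paralogs, RPL22L1 had one, while RPS27L, RPL26L1, RPL7L1 and RPL10L had none at any start listed. The other members without one were RPL6, RPL9, RPL15, RPL17, RPL27, RPS4X, RPS15, RPS26 and RPS29. The match describes these letters at annotated starts, and starts used in HMLE cells were not measured.

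Levels below are FPKM, fragments per kilobase of transcript scaled to the size of the library, rebuilt on 1 scale for all libraries from whole reads recovered from the deposited values. The recovered reads came to about 17900000 to 26700000 per library. A gene was tested where it reached an FPKM of 1 in at least 3 of the 12 libraries, which held for 11858 genes and 79 of the 84 members, 49 of the large and 30 of the small subunit. Among the 5 members that were not tested were RPL21, with no read in any library, RPL10L, with 1 read in all, RPL3L, with at most 5 reads in a library, and RPS28, whose reads could be recovered only up to a whole multiple. Log2 differences are on the scale of log2(FPKM + 1), which understates the change of the lowest genes, with their SE from limma, and a gene was called at a Benjamini-Hochberg adjusted p under 0.05 over all genes tested. The labels say of the replicates only that they are biological, and p-values measure the spread between these libraries. Ribosomal protein genes have many processed pseudogenes, and the sources used here do not state how reads that match several copies were counted. The 27 pseudogene rows of the tables held 0.0729% to 0.125% as many reads as the members.

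Library labels were checked on markers. TWIST1 stood at 712 ± 337 FPKM (SD, n = 3) in mock HMLE-Twist and 2.5 ± 0.0347 in mock HMLE-pBp. The summed level of 5 epithelial markers, CDH1, EPCAM, KRT5, KRT14 and ESRP1, was 1.49 to 6.95 FPKM in the HMLE-Twist libraries and 1970 to 2630 in the HMLE-pBp libraries. That of 5 mesenchymal markers, VIM, FN1, CDH2, ZEB1 and TWIST1, was 3060 to 4900 and 262 to 307. Markers of endothelium (PECAM1, VWF, CDH5) summed to at most 0.187 FPKM in any library, and the leukocyte markers PTPRC and CD3E had at most 5 reads and 1 read. The erythroid genes HBB and HBA1 summed to at most 0.295 FPKM with HBB at 0 reads, and the neural genes SOX10 and MAP2 to 0.705 to 2.3 FPKM with SOX10 at 0 reads. Cells labelled EMT thus held almost none of the markers of the epithelium they came from.

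Ribosomal protein mRNA took a larger share of the library in HMLE-Twist than in HMLE-pBp. The 84 members held 4.56%, 5.50% and 5.69% of the recovered reads in mock HMLE-Twist and 4.82%, 4.92% and 4.96% in salinomycin-treated HMLE-Twist. They held 3.24%, 3.02% and 3.19% in mock HMLE-pBp and 3.54%, 3.05% and 3.38% in salinomycin-treated HMLE-pBp. All 6 HMLE-Twist libraries lay above all 6 HMLE-pBp libraries, and mock and salinomycin libraries overlapped within both lines. The group means were 5.25% ± 0.605 and 4.90% ± 0.0721 (SD, n = 3) in HMLE-Twist and 3.15% ± 0.115 and 3.32% ± 0.25 in HMLE-pBp. Replicate 1 of mock HMLE-Twist was the lowest of its group, and without it the mean of that group was 5.6% ± 0.134 (SD, n = 2). Counts of members called are given with and without it. In bulk libraries a larger share and a smaller output of all other genes cannot be told apart.

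**Figure D1:**
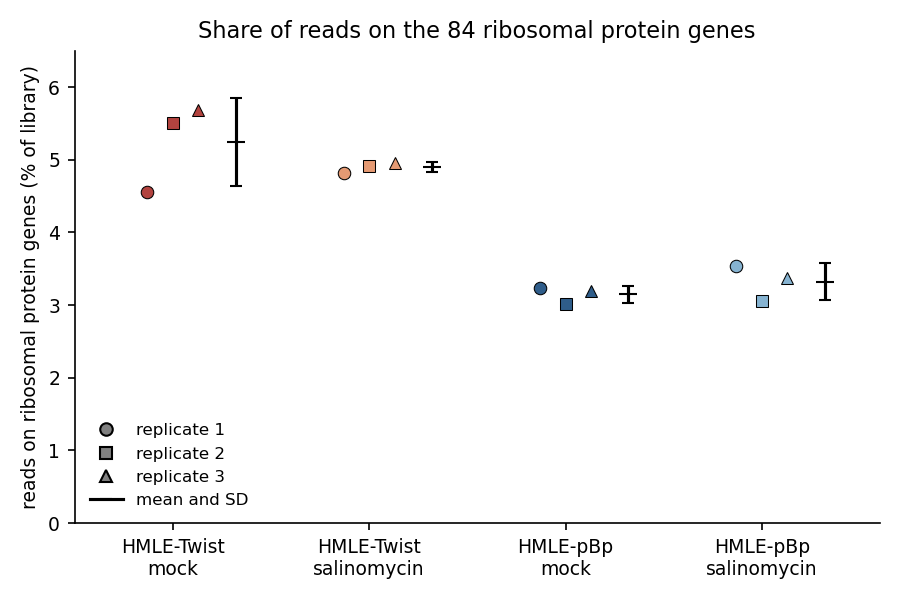
Share of recovered reads on the 84 ribosomal protein genes (vertical axis, % of the library) in each of the 4 groups, with 1 symbol per replicate and the mean with its SD beside them. The HMLE-Twist libraries sit between 4.56% and 5.69% and the HMLE-pBp libraries between 3.02% and 3.54%.

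Among the 79 members tested, the mean FPKM over the 12 libraries ran from 1.97 to 1260, with a median of 649, while the median over all genes tested was 10.6. The 3 highest were RPS6, RPL19 and RPS12. RPS6, the small-subunit protein that S6 kinase phosphorylates, had 1587 ± 41.2 FPKM in mock HMLE-Twist and 944 ± 12.9 in mock HMLE-pBp. RPL19 of the large subunit had 1434 ± 200 and 1023 ± 37.8, and RPS12 of the small subunit 1555 ± 269 and 969 ± 24.5. In HMLE-Twist these 3 did not differ beyond the spread of the libraries. The 3 lowest were RPL36A, RPS10 and RPL39L. The row RPL36A held 62 to 194 reads per library, and the length recovered for it, 2911 bases, is 6.79 times the reference transcript. RPL36A and RPS10 overlap read-through genes with rows of their own (RPL36A-HNRNPH2, RPS10-NUDT3), which held at most 3 reads, so the levels of both rows are uncertain.

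The first comparison asked how the lines differ without drug. Ribosomal protein genes were mostly higher in HMLE-Twist: 62 of the 79 members were called higher and 2 lower, where 36% and 36.9% of all genes tested were called in those directions. The median log2 difference was 0.53, a 1.44-fold higher level, against 0 over all genes tested. Both subunits took part, with 38 of 49 large-subunit and 24 of 30 small-subunit members higher and medians of 0.53 and 0.54. In 59 members all 3 HMLE-Twist libraries lay above all 3 HMLE-pBp libraries, as in 36.7% of all genes tested, and in 2 all lay below, as in 36.9%. The lines differ in the epithelial and mesenchymal markers above in every library, and the part of that change of cell state in these values cannot be told apart from TWIST1 itself.

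RPSA, the small-subunit protein also known as the laminin receptor, had 1248, 1537 and 1560 FPKM in mock HMLE-Twist and 549, 526 and 538 in mock HMLE-pBp. The groups did not overlap, and the lowest HMLE-Twist library was more than double the highest HMLE-pBp library. The log2 difference was 1.42 ± 0.1 (limma adjusted p = 4.48e-08), a 2.68-fold higher level. RPL35A, a large-subunit protein mutated in some patients with Diamond-Blackfan anaemia, had 1311, 1370 and 1546 FPKM against 631, 629 and 677. Its log2 difference was 1.12 ± 0.09 (limma adjusted p = 2.25e-07). RPL15 of the large subunit had 217, 229 and 228 FPKM against 119, 107 and 108, a difference of 1.01 ± 0.07 (adjusted p = 8.83e-08). RPL24, which bridges the subunits, had 909, 950 and 1058 FPKM against 517, 472 and 525, a difference of 0.94 ± 0.09 (adjusted p = 6.92e-07). None of these groups overlapped.

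Of the 3 stalk proteins, 1 passed the test. RPLP0, the base of the stalk on which elongation factors act, was higher in HMLE-Twist, with 1292, 1591 and 1443 FPKM against 840, 772 and 776 and a log2 difference of 0.85 ± 0.09 (adjusted p = 2.01e-06). RPLP1, one of the acidic proteins bound to it, had 848, 1237 and 1486 FPKM against 1218, 1149 and 1354, a difference of -0.09 ± 0.17 (adjusted p = 0.638). RPLP2, its dimer partner, had 506, 738 and 942 FPKM against 636, 632 and 771, a difference of 0.06 ± 0.2 (adjusted p = 0.789). In both acidic proteins the groups overlapped and replicate 1 of mock HMLE-Twist was the lowest mock library. Without that library the differences were 0.94 ± 0.08 for RPLP0 (adjusted p = 1.32e-06), 0.14 ± 0.13 for RPLP1 (adjusted p = 0.35) and 0.31 ± 0.16 for RPLP2 (adjusted p = 0.105). The contrast between RPLP0 and the acidic proteins was not tested.

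Among the remaining members that did not pass were RPL13, RPL18, RPL36, RPL37, RPL37A, RPL38, RPL39, RPS14, RPS15, RPS21, RPS26 and RPS29, with log2 differences from -0.19 (RPS21) to 0.29 (RPS15). Only RPL36A and the paralog RPL26L1 were called lower in HMLE-Twist. RPL36A had 1.49, 1.04 and 1.4 FPKM in mock HMLE-Twist and 2.83, 3.25 and 2.93 in mock HMLE-pBp (-0.8 ± 0.13, adjusted p = 0.000129).

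With total reads in place of size factors, the median of all genes tested moved up by 0.14 in the line comparison. Then 68 members were called higher and 1 lower, with a median of 0.68, where 43% and 31.4% of all genes tested were called. RPL26L1 then no longer passed (adjusted p = 0.362).

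Under salinomycin the same comparison gave 58 members higher and 2 lower in HMLE-Twist, where 31.2% and 31.7% of all genes tested were called. The median log2 difference was 0.37, a 1.3-fold higher level, against 0.01 over all genes. In 62 members all HMLE-Twist libraries lay above all HMLE-pBp libraries and in 3 below, where all genes tested did so in 34.9% and 34.5%. Of the members called higher, 57 were called higher under both mock and salinomycin, and the 2 lower ones, RPL26L1 and RPL36A, were lower under both. RPS26 was called higher under salinomycin alone, at 0.48 under salinomycin and 0.23 under mock, and the step between these did not pass its own test (adjusted p = 0.431). With total reads the counts were 68 higher and 2 lower, with a median of 0.52, where 40.1% and 25.9% of all genes tested were called. Of all called genes 60.8% were then higher in HMLE-Twist, against 49.6% with size factors.

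RPSA, RPL35A and RPL15 were again among the 6 largest rises, and RPL8 replaced RPL24. RPSA had 1198, 1272 and 1285 FPKM in HMLE-Twist and 643, 537 and 540 in HMLE-pBp, a log2 difference of 1.13 ± 0.1 (adjusted p = 5.15e-07). RPL35A had 1128, 1142 and 1250 FPKM against 676, 550 and 629, a difference of 0.93 ± 0.09 (adjusted p = 1.79e-06). RPL8, a large-subunit protein near the peptidyl transferase centre, had 1326, 1301 and 1489 FPKM against 701, 747 and 856, a difference of 0.84 ± 0.15 (adjusted p = 0.000294). RPL15 differed by 0.79 ± 0.07 (adjusted p = 1.1e-06). In each of these 4 genes the groups did not overlap. RPL36A had 0.973, 1.18 and 1.14 FPKM in HMLE-Twist and 1.77, 2.82 and 2.89 in HMLE-pBp, a difference of -0.72 ± 0.13 (adjusted p = 0.000392). RPLP0 differed by 0.59 ± 0.09 (adjusted p = 6.77e-05), RPLP1 by 0.1 ± 0.17 (adjusted p = 0.648) and RPLP2 by 0.4 ± 0.2 (adjusted p = 0.0978), with no overlap of the groups in RPLP2.

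**Figure D2:**
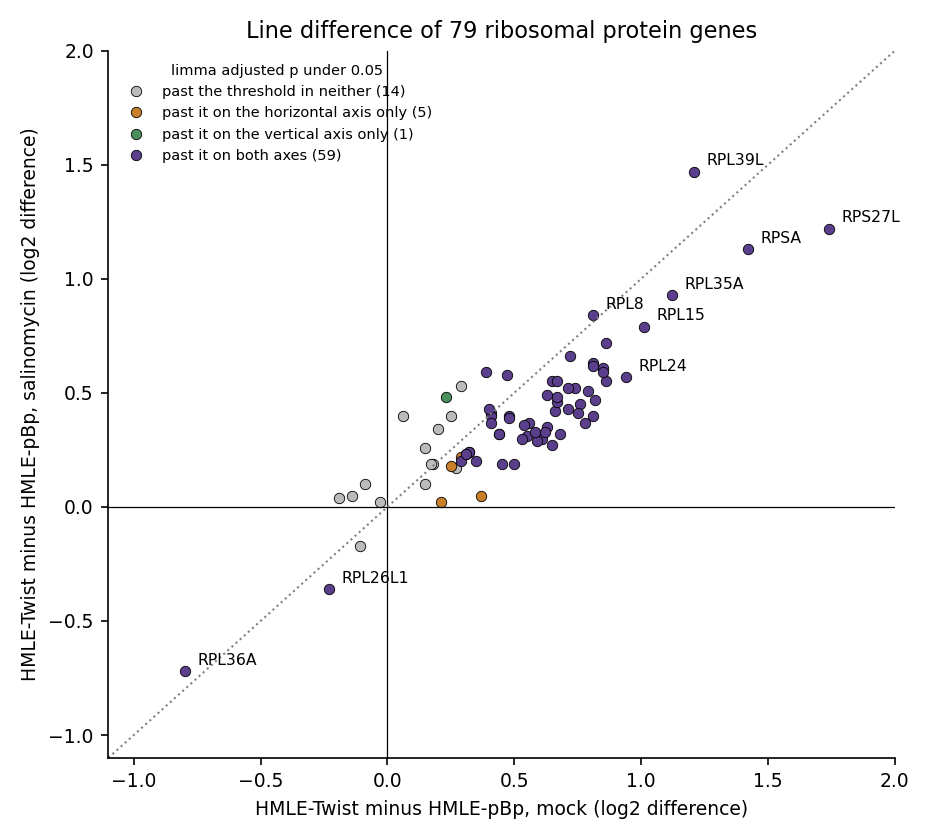
Log2 difference between HMLE-Twist and HMLE-pBp for the 79 members tested, under mock (horizontal) and under salinomycin (vertical), coloured by where the limma adjusted p was under 0.05. Of the points, 59 pass on both axes, the dotted line marks equal differences, and RPS27L, RPSA and RPL39L lie farthest above 0 while RPL36A and RPL26L1 lie below it on both axes.

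The second comparison asked how salinomycin changed these genes within each line. In HMLE-Twist, 12 of the 79 members fell and none rose, where 13.1% of all genes tested rose and 13.5% fell. The count of falls, 15.2% of the members tested, was near that background. Without adjustment, 25 members fell and 0 rose at p under 0.05, where 20% of all genes fell and 18.4% rose. Limma voom also called 12 falls and 0 rises, where it called 13.8% of all genes in each direction. The median log2 difference was -0.12 against -0.01 over all genes, and the members ran from -0.4 to 0.22. All salinomycin libraries lay below all mock libraries in 25 members and above in 1, where all genes tested did so in 21.3% and 19.3%. The 12 were RPL5, RPL6, RPL7, RPL9, RPL24, RPL35A, RPL22L1 and RPL26L1 of the large subunit and RPS7, RPS24, RPS27A and RPS27L of the small subunit.

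RPS7 of the small subunit had 965, 1157 and 1130 FPKM under mock and 820, 873 and 892 under salinomycin in HMLE-Twist, a log2 difference of -0.33 ± 0.09 (limma adjusted p = 0.0183). RPL7 of the large subunit had 1126, 1131 and 1138 FPKM under mock and 927, 904 and 901 under salinomycin, a difference of -0.31 ± 0.07 (adjusted p = 0.0085). RPL24 went from 909, 950 and 1058 to 773, 798 and 832 FPKM, a difference of -0.28 ± 0.09 (adjusted p = 0.0302). RPL5, which with RPL11 and 5S RNA binds MDM2, had 941, 962 and 927 FPKM under mock and 812, 785 and 760 under salinomycin, a difference of -0.26 ± 0.06 (adjusted p = 0.00904). All salinomycin libraries of these 4 genes lay below all mock libraries. RPL11 had a log2 difference of -0.16 ± 0.12 (adjusted p = 0.365), RPSA of -0.2 ± 0.1 (adjusted p = 0.137) and RPLP0 of -0.06 ± 0.09 (adjusted p = 0.671).

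The number of falls turned on single libraries. Without replicate 1 of mock HMLE-Twist, 29 members fell, with a median of -0.19, and without replicate 2 or replicate 3 of that group 4 and 7 fell. Over all genes tested in these fits 13.7%, 10% and 15.3% fell. Without replicates 1, 2 and 3 of the salinomycin group in turn, 4, 6 and 6 members fell, where 9.05%, 10.3% and 8.81% of all genes did. No member rose in any of these fits.

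The response in HMLE-Twist moved with the GC content of the reference transcript, here the longest protein-coding one of the gene in GENCODE release 29. Which transcripts the reads came from was not measured. In the 26 members of lowest GC (39.5% to 46.2%) the median log2 difference was -0.2 and 7 fell, in the 27 of middle GC it was -0.15 and 4 fell, and in the 26 of highest GC (52.2% to 66.2%) it was 0.07 and 1 fell. The SD between replicates, pooled over the 4 groups, had medians of 0.1, 0.12 and 0.14 on the log2 scale in these sets. The number of calls depends on this spread as well. Across the 79 members Pearson's r between GC and the response reached 0.66 for HMLE-Twist against 0.03 for HMLE-pBp, and across 10756 genes 0.25 and -0.19, where genes share libraries and are not independent. The difference between replicates of 1 group moved with GC as well. Replicate 3 minus replicate 1 of mock HMLE-Twist had a median of 0.11 in the members of lowest and 0.46 in those of highest GC, with r = 0.6 over the members. Deviations of single libraries from their group were also compared between groups, without regard to GC. Over the members, the deviation of replicate 3 of mock HMLE-Twist correlated at r = 0.86 with that of replicate 3 of salinomycin-treated HMLE-Twist. With replicate 3 of mock and of salinomycin-treated HMLE-pBp r was 0.73 and 0.83. For replicate 1 the same values were 0.52, 0.38 and 0.47, and for replicate 2 they were 0.41, 0.06 and 0.32. The part of GC content and of these replicates in the falls was not tested.

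**Figure D3:**
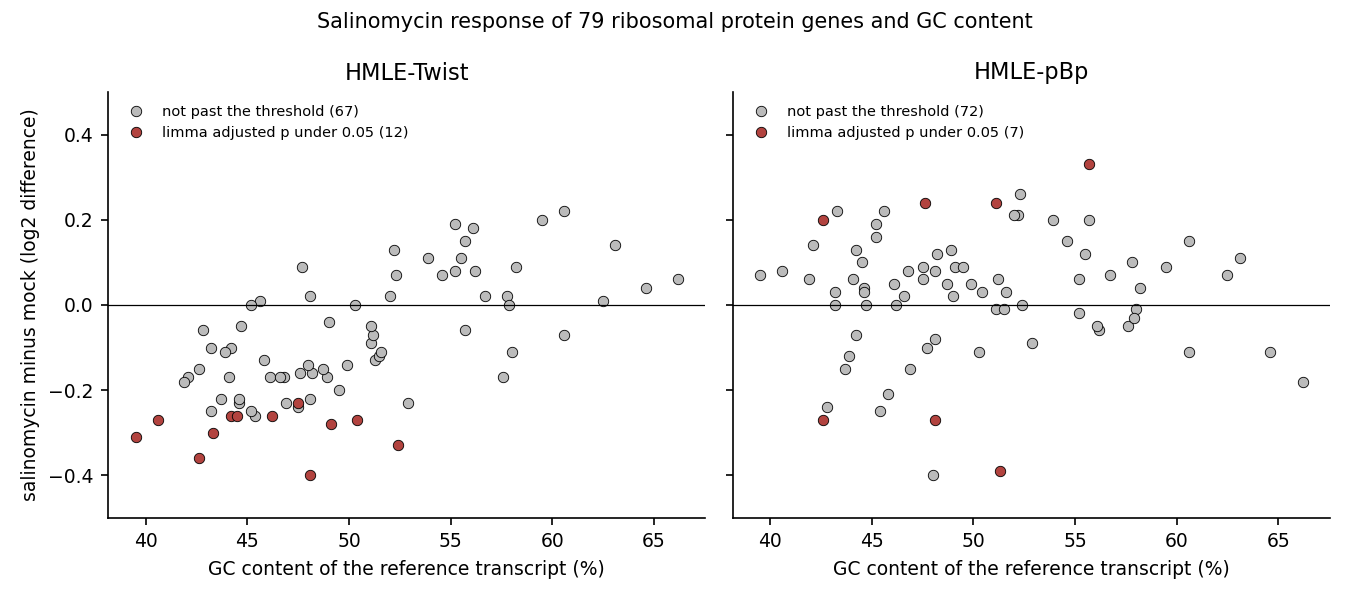
Salinomycin minus mock on the log2 scale (vertical) against the GC content of the reference transcript (horizontal, %) for the 79 members, in HMLE-Twist (left) and HMLE-pBp (right), with called members in red. In HMLE-Twist the points climb with GC from a median of -0.2 in the 26 members of lowest GC to 0.07 in the 26 of highest, and in HMLE-pBp the medians of these members are 0.05 and 0.06.

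In HMLE-pBp, 4 members rose and 3 fell, where 9.82% of all genes tested rose and 9.4% fell, so both shares of the members, 5.06% and 3.8%, lay below the background. The median log2 difference was 0.05. Salinomycin libraries all lay above mock libraries in 14 members and below in 5, where all genes tested did so in 20.5% and 21.4%. RPL3, a core protein of the peptidyl transferase centre, had 724, 693 and 698 FPKM under mock and 947, 865 and 844 under salinomycin, a log2 difference of 0.33 ± 0.09 (adjusted p = 0.0225). RPS4X of the small subunit went from 720, 765 and 759 to 922, 882 and 853 FPKM (0.24 ± 0.06, adjusted p = 0.0171). RPS6 went from 929, 951 and 951 to 1152, 1043 and 1051 FPKM (0.2 ± 0.06, adjusted p = 0.0401). In these 3 the groups did not overlap. Of 22 alternatives the call was lost in 3 for RPL3, 4 for RPS4X and 12 for RPS6. The 3 that fell were the paralogs RPL39L, RPL22L1 and RPL26L1. RPSA and RPLP0 had differences of 0.09 ± 0.1 (adjusted p = 0.544) and 0.2 ± 0.09 (adjusted p = 0.118), RPLP1 of -0.1 ± 0.17 (adjusted p = 0.709) and RPLP2 of -0.11 ± 0.2 (adjusted p = 0.724).

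These calls were few. As single libraries were left out, 5.84% to 13.4% of all genes rose and 3.88% to 13.7% fell. No member rose without replicate 3 of mock or replicate 1 of salinomycin-treated HMLE-pBp, 1 and 2 rose without replicates 2 and 1 of mock HMLE-pBp, and 8 rose without replicate 1 of mock HMLE-Twist. No member fell without replicate 1 or 3 of mock or replicate 2 of salinomycin-treated HMLE-pBp, and 1 fell without replicate 2 of mock or replicate 1 of salinomycin-treated HMLE-pBp, or without replicate 2 of salinomycin-treated HMLE-Twist. With total reads 2 rose, with only the groups of the comparison 2, and with no filter 1, where 9.31%, 10.1% and 7.62% of all genes rose.

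The third comparison asked whether the responses differ between the lines. The response in HMLE-Twist lay below that in HMLE-pBp in 61 of 79 members, against 5960 of 11858 genes tested. It was called lower in 5 members and higher in none, where 6.91% of all genes tested were called higher and 6.47% lower, so the 6.33% of members called lower was close to the background. Without adjustment the counts were 19 lower and 0 higher at p under 0.05, where 15.4% of all genes were called in each direction. Limma voom called 4 lower and 0 higher, where it called 4.92% of all genes lower and 6.22% higher. The median difference of responses was -0.14 against 0 over all genes. For each gene this equals the line difference under salinomycin minus that under mock. The difference moved with GC content as well, with medians of -0.23, -0.18 and -0.05 and 3, 2 and 0 calls in the members of lowest, middle and highest GC. The number of calls also depends on the spread between replicates, which rose with GC in these members. Pearson's r with GC was 0.5 over the 79 members and 0.39 over 10756 genes, and the part of GC in the difference was not tested.

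RPS4X had a response of -0.16 ± 0.06 in HMLE-Twist (adjusted p = 0.0668), with 1258, 1316 and 1287 FPKM under mock and 1193, 1157 and 1095 under salinomycin. In HMLE-pBp its response was the rise of 0.24 above, and the difference of the responses was -0.41 ± 0.09 (adjusted p = 0.0116). RPS6 had 1546, 1628 and 1586 FPKM under mock and 1434, 1465 and 1401 under salinomycin in HMLE-Twist (-0.15 ± 0.06, adjusted p = 0.0927), and a difference of responses of -0.34 ± 0.09 (adjusted p = 0.0233). RPL7 and RPL6 fell in HMLE-Twist and did not pass in HMLE-pBp. RPL7 had 713, 686 and 765 FPKM under mock and 837, 693 and 739 under salinomycin in HMLE-pBp, and its responses differed by -0.38 ± 0.11 (adjusted p = 0.0358). RPL6 had 1014, 1061 and 1064 against 903, 897 and 883 FPKM in HMLE-Twist and 555, 578 and 596 against 655, 592 and 591 in HMLE-pBp, a difference of responses of -0.31 ± 0.09 (adjusted p = 0.039). The fifth was the paralog RPS27L, at -0.52 ± 0.12 (adjusted p = 0.0202).

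The count ranged from 1 to 15 as single libraries were left out, while 2.79% to 10.1% of all genes were called lower. It was 15 without replicate 1 of mock HMLE-Twist. It was 1 without replicate 2 of mock HMLE-Twist, replicate 1 or 3 of salinomycin-treated HMLE-Twist or replicate 2 of mock HMLE-pBp. It was 2 without replicate 3 of mock HMLE-pBp. It was 3 without replicate 2 of salinomycin-treated HMLE-Twist or replicate 1 of either HMLE-pBp group. RPS4X stayed under the threshold in all 21 alternatives run for it, with adjusted p from 0.00905 to 0.0448.

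**Figure D4:**
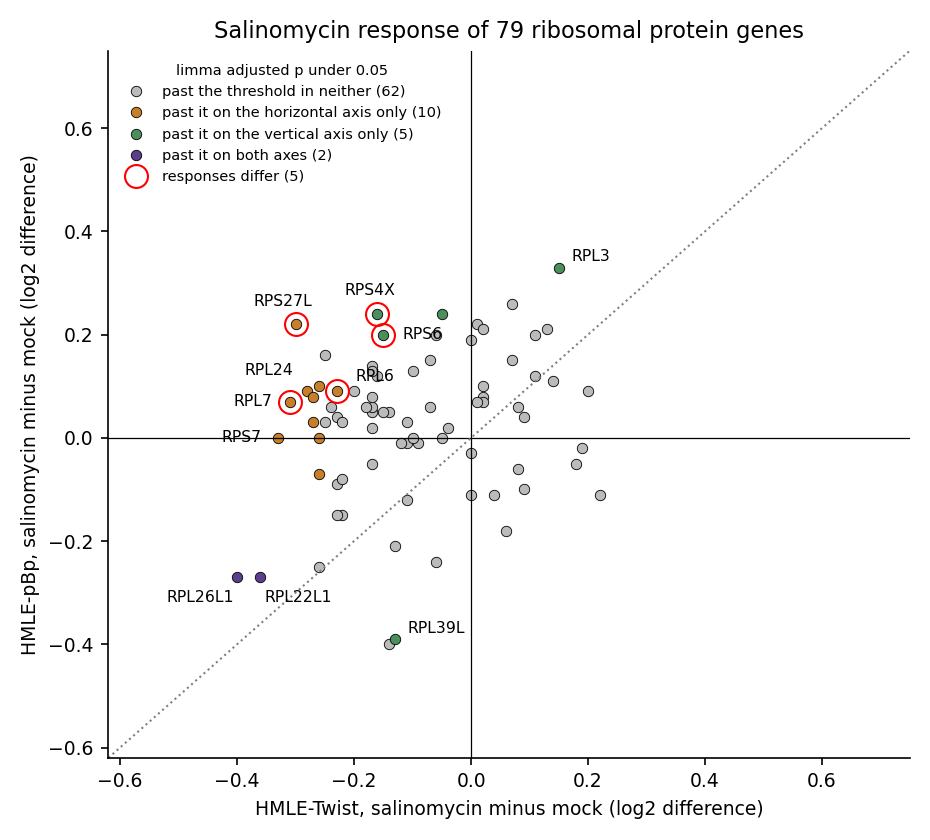
Salinomycin minus mock on the log2 scale for the 79 members in HMLE-Twist (horizontal) and HMLE-pBp (vertical), coloured by where the limma adjusted p was under 0.05, with red rings on the 5 members whose responses differed between the lines. RPL26L1 and RPL22L1 are the 2 that fell in both lines, and all ringed points lie left of the dotted line of equal responses.

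The ratios of RPS27L, RPL39L and RPL26L1 to their partners did not overlap between the lines, those of RPL7L1 overlapped, and those of RPL22L1 overlapped under salinomycin; no ratio was tested. RPS27L, a p53-inducible paralog of the small-subunit protein RPS27, had 67.4, 70.7 and 64.3 FPKM in mock HMLE-Twist and 19.8, 18.6 and 19.9 in mock HMLE-pBp. The difference of 1.74 ± 0.09 (limma adjusted p = 2.96e-09), 3.35-fold, was the largest of any member tested, and the groups did not overlap. RPS27 had 1087, 1202 and 1244 FPKM against 732, 658 and 764, a difference of 0.71 ± 0.1 (adjusted p = 4.91e-05). RPS27L thus stood at 5.75% ± 0.527 (SD, n = 3) of the RPS27 level in mock HMLE-Twist and at 2.71% ± 0.109 in mock HMLE-pBp. With reference lengths these ratios come to 0.991% and 0.467%, as the reference transcript of RPS27L has 6434 bases against 1084 recovered. Under salinomycin it went to 53.4, 56.8 and 53.2 FPKM in HMLE-Twist, a fall of -0.3 ± 0.09 (adjusted p = 0.0233), and to 25.3, 19.9 and 23.5 in HMLE-pBp (0.22 ± 0.09, adjusted p = 0.101). The line difference under salinomycin was 1.22 ± 0.09 (adjusted p = 1.11e-07).

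RPL39L, a paralog of RPL39 known from male germ cells, had 38.7, 42.8 and 52.4 FPKM in mock HMLE-Twist and 18.3, 17.5 and 20.1 in mock HMLE-pBp, without overlap. The difference was 1.21 ± 0.12 (adjusted p = 1.86e-06). Its partner RPL39 had 200, 216 and 267 FPKM against 199, 193 and 205, with overlapping groups and a difference of 0.18 ± 0.12 (adjusted p = 0.198). RPL39L was 19.6% ± 0.218 of RPL39 in mock HMLE-Twist and 9.34% ± 0.384 in mock HMLE-pBp. With salinomycin it fell to 15.0, 12.6 and 14.5 FPKM in HMLE-pBp (-0.39 ± 0.12, adjusted p = 0.0434), a call lost in 13 of 22 alternatives, and had 36.8, 38.7 and 46.1 FPKM in HMLE-Twist (-0.13 ± 0.12, adjusted p = 0.467). The line difference under salinomycin was 1.47 ± 0.12 (adjusted p = 4.18e-07), and the responses did not pass the test of their difference (adjusted p = 0.327).

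RPL26L1, the paralog of RPL26, went the other way. It had 54.1, 56.9 and 60.7 FPKM in mock HMLE-Twist and 69.8, 65.1 and 67.1 in mock HMLE-pBp (-0.23 ± 0.07, adjusted p = 0.0113), while RPL26 had 1019, 1158 and 1213 against 696, 600 and 669 (0.79 ± 0.09, adjusted p = 5.96e-06). The ratio of paralog to partner was 5.08% ± 0.206 in mock HMLE-Twist and 10.3% ± 0.474 in mock HMLE-pBp, with no overlap between the lines. RPL26L1 fell with salinomycin in both lines, to 43.3, 41.2 and 45 FPKM in HMLE-Twist (-0.4 ± 0.07, adjusted p = 0.00169) and to 58.5, 54.7 and 54.1 in HMLE-pBp (-0.27 ± 0.07, adjusted p = 0.0223), and the second of these calls was lost in 4 of 22 alternatives. RPL26 did not pass in either line, at -0.23 ± 0.09 (adjusted p = 0.0726) and 0.04 ± 0.09 (adjusted p = 0.758). The line difference of RPL26L1 under salinomycin was -0.36 ± 0.07 (adjusted p = 0.00077).

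RPL22L1, the paralog that RPL22 represses, was the closest to its partner in level. It had 94.3, 80.7 and 78.5 FPKM in mock HMLE-Twist and 67.1, 68.4 and 70 in mock HMLE-pBp, which is 73.8% ± 9.15 and 91.8% ± 6.26 of RPL22. It fell with salinomycin to 68.3, 62.9 and 64.5 FPKM in HMLE-Twist (-0.36 ± 0.08, adjusted p = 0.00596) and to 53.3, 57.4 and 59.3 in HMLE-pBp (-0.27 ± 0.08, adjusted p = 0.0371), and the call in HMLE-pBp was lost in 7 of 22 alternatives. RPL22 had 112, 113 and 118 against 103, 99.2 and 103 FPKM in HMLE-Twist (-0.17 ± 0.07, adjusted p = 0.12) and 78.6, 70 and 75.7 against 90.3, 79.6 and 78.2 in HMLE-pBp (0.14 ± 0.07, adjusted p = 0.2). Both genes were higher in HMLE-Twist under mock, RPL22L1 by 0.29 ± 0.08 (adjusted p = 0.00592) and RPL22 by 0.61 ± 0.07 (adjusted p = 1.14e-05). Under salinomycin the line differences were 0.2 ± 0.08 (adjusted p = 0.0477) and 0.3 ± 0.07 (adjusted p = 0.00375).

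RPL7L1, a paralog of RPL7 that acts in ribosome assembly, had 78, 60.4 and 59.2 FPKM in mock HMLE-Twist and 56.2, 48 and 43.3 in mock HMLE-pBp (0.41 ± 0.12, adjusted p = 0.00961). Under salinomycin the values were 59.4, 49.7 and 55.1 against 44.2, 39.4 and 39.5 (0.41 ± 0.12, adjusted p = 0.0124). Neither response passed, at -0.26 ± 0.12 (adjusted p = 0.15) and -0.25 ± 0.12 (adjusted p = 0.17). Its level was 5.44% to 6.85% of RPL7 in the group means, and 2.04% to 2.57% with reference lengths. RPL3L and RPL10L, known from striated muscle and testis, held at most 5 reads and 1 read in any library, when RPL3 and RPL10 averaged 1031 and 361 FPKM in mock HMLE-Twist. Whether the paralogs as a set move differently from the other members was not tested, and their levels relative to a partner depend on the gene lengths used.

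**Figure D5:**
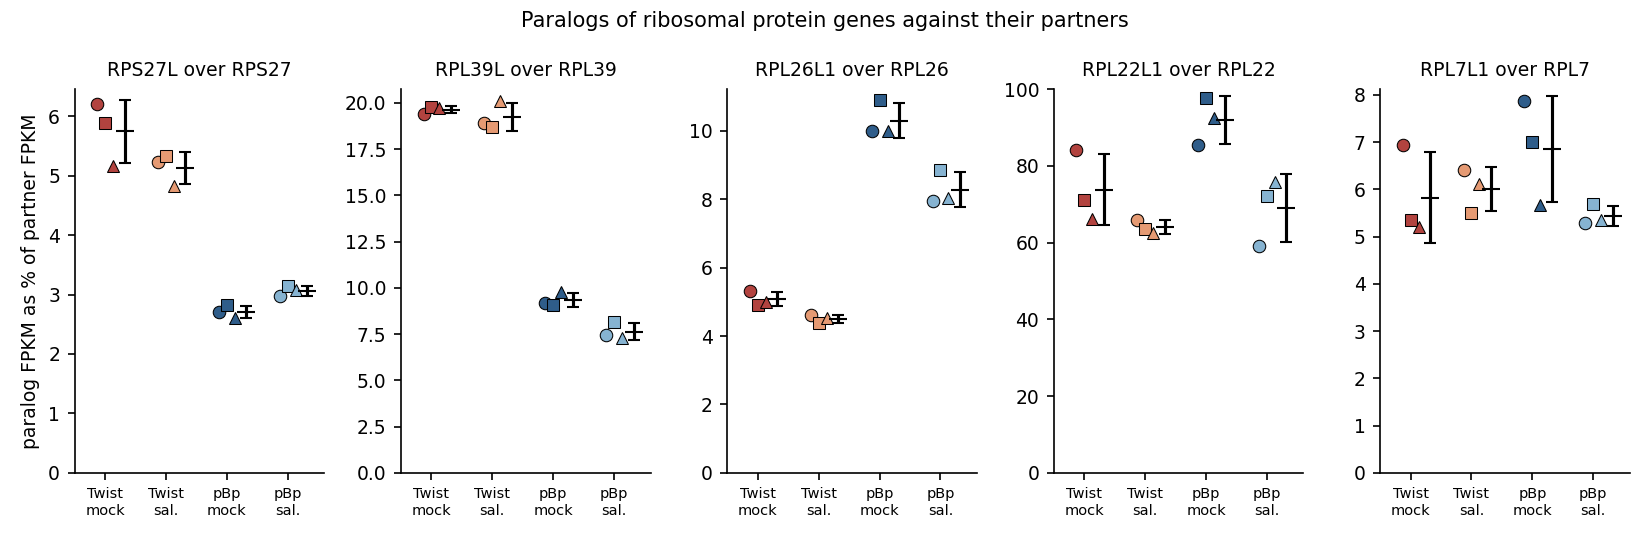
Level of 5 paralogs as a percent of the FPKM of their partner (vertical axes, each from 0) in the 4 groups, with 1 symbol per replicate and the mean with its SD. RPS27L and RPL39L stand higher relative to their partners in HMLE-Twist (5.75% and 19.6% under mock) than in HMLE-pBp (2.71% and 9.34%), and RPL26L1 stands lower (5.08% against 10.3%).

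Members were also described by their start sequence. The 52 tested members with the pyrimidine run had a median log2 difference of 0.49 under mock, with 41 higher and 1 lower, and the 12 without it one of 0.43, with 8 higher and 1 lower. In the salinomycin response of HMLE-Twist the medians were -0.1, with 6 falls, and -0.19, with 4 falls. The second group holds paralogs, and its difference from the first was not tested.

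Replicates agreed best for RPS6, RPS4X and RPL6, with a pooled SD over the 4 groups of 0.05 on the log2 scale. They spread most for RPS15 (0.35), RPLP2 (0.28) and RPS21 (0.28). The median SD between replicates of the members was 0.16 in mock HMLE-Twist, 0.06 in salinomycin-treated HMLE-Twist, 0.08 in mock and 0.12 in salinomycin-treated HMLE-pBp, close to the 0.17, 0.09, 0.09 and 0.13 of all genes tested. RPS15 had 253, 328 and 501 FPKM in mock HMLE-Twist.

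Other genes of the translation machinery were counted from lists. Their counts are to be read against the shares over all genes tested. For the line difference these were 36% higher and 36.9% lower under mock and 31.2% and 31.7% under salinomycin. For the response they were 13.1% up and 13.5% down in HMLE-Twist and 9.82% and 9.4% in HMLE-pBp, and for the difference of responses 6.91% and 6.47%. Of 23 other mRNAs known for a TOP start, 14 were higher and 3 lower in mock HMLE-Twist, with a median of 0.44. Under salinomycin 12 were higher and 4 lower. NAP1L1, a histone chaperone, had 191 ± 29.9 FPKM in mock HMLE-Twist and 89.6 ± 1.91 in mock HMLE-pBp (1.07 ± 0.1, adjusted p = 1.06e-06). VIM is also on this list and is a mesenchymal marker (5.44 ± 0.22, adjusted p = 2.95e-10). GNB2L1, the row for RACK1, a scaffold protein of the small subunit, was lower in mock HMLE-Twist (-0.32 ± 0.07, adjusted p = 0.00104), as was PABPC1, which binds poly(A) tails (-0.62 ± 0.09, adjusted p = 6.38e-05). In the response of HMLE-Twist to salinomycin 1 of the 23 rose, the elongation factor EEF2 (0.46 ± 0.14, adjusted p = 0.0265), and 4 fell, among them NAP1L1 (-0.33 ± 0.1, adjusted p = 0.0292) and EIF3E (-0.3 ± 0.09, adjusted p = 0.0295). In HMLE-pBp 4 rose, among them TPT1 (0.48 ± 0.12, adjusted p = 0.0168) and EIF3F (0.35 ± 0.11, adjusted p = 0.0468), and 0 fell. The responses differed in 1 of the 23, NACA, which was lower in HMLE-Twist relative to HMLE-pBp (-0.36 ± 0.09, adjusted p = 0.0255).

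The mitochondrial ribosomal proteins, which belong to a separate ribosome, were all tested. Of these 76 genes 33 were higher and 8 lower in mock HMLE-Twist, with a median of 0.18, and 20 were higher and 6 lower under salinomycin. With salinomycin 26 fell and 3 rose in HMLE-Twist, with a median of -0.2, and 8 fell and 1 rose in HMLE-pBp. MRPL13 had 101 ± 6.5 FPKM under mock and 71.1 ± 0.77 under salinomycin in HMLE-Twist (-0.5 ± 0.1, adjusted p = 0.00368), and MRPL35 changed by -0.52 ± 0.09 (adjusted p = 0.00102). MRPL4 (0.94 ± 0.21, adjusted p = 0.00573) and MRPL2 (0.6 ± 0.11, adjusted p = 0.00182) rose there. The responses differed in 4 genes, higher in HMLE-Twist for MRPL36 (0.51 ± 0.13, adjusted p = 0.0264) and lower for 3, among them MRPL13 (-0.54 ± 0.14, adjusted p = 0.0292).

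Of 31 translation factors 15 were higher and 5 lower in mock HMLE-Twist, and 10 were higher and 4 lower under salinomycin. With the drug 4 rose and 6 fell in HMLE-Twist, and 4 rose and 2 fell in HMLE-pBp. EIF4EBP1, the repressor of cap-dependent initiation that mTORC1 inactivates, rose in both lines, from 92 ± 24.7 to 205 ± 14.6 FPKM in HMLE-Twist (1.18 ± 0.16, adjusted p = 0.000288) and from 89.3 ± 9.33 to 133 ± 7.19 in HMLE-pBp (0.57 ± 0.16, adjusted p = 0.0288). EIF4E, the cap-binding factor it holds, fell in HMLE-Twist (-0.46 ± 0.11, adjusted p = 0.00916). The responses differed in 3 genes, higher in HMLE-Twist for EEF2K, the kinase that inhibits EEF2 (0.64 ± 0.12, adjusted p = 0.00736), and EIF3A (0.61 ± 0.13, adjusted p = 0.0112), and lower for EIF2B3 (-0.35 ± 0.11, adjusted p = 0.0487).

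Among 23 genes of RNA polymerase I, MYC and the chaperones of ribosomal proteins, 4 were higher and 10 lower in mock HMLE-Twist, and 5 were higher and 5 lower under salinomycin. With the drug 3 rose and 4 fell in HMLE-Twist, and 0 rose and 5 fell in HMLE-pBp. MYC, a transcription factor known to drive ribosome production, had 20.2 ± 2.55 FPKM in mock HMLE-Twist and 140 ± 21.6 in mock HMLE-pBp (-2.73 ± 0.14, adjusted p = 3.66e-09). With salinomycin it rose to 62.4 ± 8.47 in HMLE-Twist (1.58 ± 0.14, adjusted p = 1.71e-05) and fell to 95.9 ± 10.8 in HMLE-pBp (-0.53 ± 0.14, adjusted p = 0.021), and the responses differed by 2.11 ± 0.2 (adjusted p = 0.00011). POLR1B, a catalytic subunit of RNA polymerase I, was lower in mock HMLE-Twist (-1.11 ± 0.11, adjusted p = 2.36e-06) and rose there with salinomycin (0.43 ± 0.11, adjusted p = 0.016).

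Among 20 genes of mTORC1 and the TOP regulators, 3 were higher and 9 lower in mock HMLE-Twist, 3 higher and 7 lower under salinomycin. With salinomycin 7 rose and 4 fell in HMLE-Twist and 4 rose and 1 fell in HMLE-pBp. The responses of LARP1, which binds TOP mRNAs, differed between the lines (0.59 ± 0.11, adjusted p = 0.00681), with 46.6 ± 3.02 FPKM under mock and 60 ± 5.18 under salinomycin in HMLE-Twist and 102 ± 3.97 and 86.3 ± 1.69 in HMLE-pBp. PDCD4, an inhibitor of the initiation helicase, rose in HMLE-pBp from 13.1 ± 2.02 to 29.1 ± 4.07 FPKM (1.1 ± 0.16, adjusted p = 0.000697). In HMLE-Twist PDCD4 had 20.7 ± 4.64 FPKM under mock and 31.8 ± 2.72 under salinomycin. Its responses did not pass the test of their difference (adjusted p = 0.161). SESN1, a stress-induced inhibitor of mTORC1, fell in HMLE-Twist (-0.58 ± 0.12, adjusted p = 0.00297), as did SESN3 of the same family (-0.76 ± 0.17, adjusted p = 0.00646). SESN3 had 1.99 ± 0.726 FPKM under mock and 0.752 ± 0.361 under salinomycin there, near the filter limit of 1 FPKM. SESN2, a relative of SESN1 and SESN3, rose in HMLE-pBp (0.92 ± 0.24, adjusted p = 0.0193). In HMLE-Twist SESN2 had 6.35 ± 2.89 FPKM under mock and 10.9 ± 0.182 under salinomycin, and its responses did not pass the test of their difference (adjusted p = 0.807).

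Outside the naming rule, RPL36AL, a close copy of RPL36A, had 231 ± 22.4 FPKM in mock HMLE-Twist and 161 ± 26.9 in mock HMLE-pBp, far above the RPL36A row itself. FAU, which encodes RPS30 fused to a ubiquitin-like protein, had 419 ± 92.9 FPKM in mock HMLE-Twist and 385 ± 23.7 in mock HMLE-pBp.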

How the data were processed

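RNA was measured in 12 libraries, 3 in each of 4 groups, from 750 ng of RNA with a stranded mRNA kit and paired reads of 75 cycles, per the labels. The authors deposited 1 table per group, each normalized within its own libraries, with 26364 rows, 26357 of them alike in all tables. The mock tables deposited by the authors hold FPKM. The salinomycin tables deposited by the authors hold log2 values with the spread between libraries shrunk, judged from the values, although they are named as FPKM. DESeq2, with the version string 1.1.0, and the build hg19 are named in the submitters' processing notes. No aligner, counter or gene model is given in the sources used here.

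Whole reads were recovered from both kinds of table. Mock values are whole multiples of 1 step per gene, and a whole length was found for 99.94% of the genes with a mock read. The salinomycin values were inverted with a penalised negative binomial model, after which 98.6% (HMLE-Twist) and 96.1% (HMLE-pBp) came within 0.1 of a whole read. For members these shares were 81.7% and 77.6%, with a largest distance of 0.0113% of the reads. As the distance is taken to the nearest whole read, it is small for any gene with many reads and does not measure accuracy. Genes whose reads were known only up to a multiple were left out (305 of 12839 genes with over 100 mock reads). On simulated reads all values were exact for 99.2% of genes over 100 reads in the mock step.

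From these reads and lengths FPKM was computed again with size factors (median of ratios) taken over the 12 libraries together, and genes that reached 1 FPKM in fewer than 3 libraries were dropped. Values as log2(FPKM + 1) from all groups entered 1 model without covariates in limma 3.58.1 under R 4.3.3 (lmFit, then eBayes using a mean-variance trend). Data were simulated for salinomycin against mock in HMLE-Twist over 11580 genes. The fit called 95.5% of genes changed 2-fold, 46.3% of those changed 1.5-fold and 1.49% of those changed by 0.32 on the log2 scale. Few genes were changed in the simulation and all were given the same dispersion, so these rates are not those of the members.

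Named in each comparison were the 6 members with the largest rise and the 6 with the largest fall past the threshold, the stalk genes, RPSA, the paralogs with their partners, the 3 highest and 3 lowest members, and up to 2 genes per direction from other lists. RPL5, RPL11, RPS15, RPS21 and RPS26 were named after their values were seen. A few genes that this rule names are not reported here. Members and lists were chosen with earlier results of these data known. Each replicate was counted as its own sample, because the labels call the replicates biological. Replicates of a group differed far beyond sampling noise (mean chi-square per gene of at least 8.63). This does not show that they are independent, as same-numbered libraries shared part of their deviation. Alternatives were a replicate block, another pseudocount, no filter, other scalings, reference lengths (GENCODE release 29), fewer groups, no gene left out, each library left out, and limma voom, the last chosen after the data were seen.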

Additional observations from a re-analysis of the deposited data

Results flagged for a closer look

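In 5 members the salinomycin response in HMLE-Twist differed from that in HMLE-pBp by the test of the difference itself. They are 6.33% of the 79 members tested, close to the 6.47% of all genes tested that were called in that direction. The response in HMLE-Twist minus that in HMLE-pBp was -0.31 for RPL6, -0.38 for RPL7, -0.52 for RPS27L, -0.41 for RPS4X and -0.34 for RPS6 on the log2 scale. All 3 salinomycin libraries lay below all 3 mock libraries in HMLE-Twist for each of the 5. In HMLE-pBp all 3 salinomycin libraries lay above all mock libraries for RPS4X and RPS6, and the groups overlapped for RPL6, RPL7 and RPS27L. Under the 21 alternatives the call was lost in 0 for RPS4X, 4 for RPS27L, 6 for RPS6, 10 for RPL7 and 12 for RPL6.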

How the results depend on the processing

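No call of a named member changed sign under any alternative run, while the median of members in the HMLE-pBp response, 0.05, was -0.01 without replicate 1 of salinomycin-treated HMLE-pBp. The edgeR and DESeq2 tests planned on recovered reads were not run, because the deposited units are FPKM and log2 values. In their place limma voom, chosen after the data were seen, called 12 falls in HMLE-Twist. It called 62 and 56 members higher in HMLE-Twist under mock and salinomycin. Over all genes voom called 13.8% lower in the HMLE-Twist response and 35.9% and 31% higher in HMLE-Twist. The fit with the replicate block called 17 members lower in the HMLE-Twist response, 5 higher and 5 lower in the HMLE-pBp response, 11 with a lower response in HMLE-Twist, and 64 and 65 higher in HMLE-Twist under mock and salinomycin, and all calls made without the block remained. Over all genes the block fit called 19.3% lower in the HMLE-Twist response, 16.4% higher and 17.6% lower in the HMLE-pBp response, 13.9% lower in the difference, and 39.2% and 35.3% higher in HMLE-Twist, so the background rose too. The replicate numbers were not taken to pair the samples, because 15 of 18 same-numbered pairs, not all, had a correlation of deviations over 0.1. The lowest was 0.04. In 30 of 36 cases, however, a library correlated best with its own number in another group. Same-numbered libraries thus shared part of their deviation, and the main fit takes no account of it. With only the groups of the comparison 6 members fell in HMLE-Twist and 2 rose in HMLE-pBp, where 9.6% and 10.1% of all genes did. With no filter 1 rose in HMLE-pBp and 2 had differing responses. Over all genes 7.62% then rose and 4.76% had a lower response in HMLE-Twist. With total reads 2 rose in HMLE-pBp and 3 had differing responses, where these shares were 9.31% and 6.14%. The line medians with total reads were 0.68 with 1 lower under mock and 0.52 under salinomycin.

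Leaving out 1 library at a time gave 4 to 29 falls and 0 rises in HMLE-Twist (median -0.19 to -0.05), 0 to 8 rises and 0 to 4 falls in HMLE-pBp (median -0.01 to 0.09), 1 to 15 lower and 0 higher differences of response (median -0.25 to -0.09), 56 to 66 higher and 2 to 3 lower in HMLE-Twist under mock (median 0.48 to 0.63) and 47 to 66 higher and 2 to 3 lower under salinomycin (median 0.34 to 0.4). Over all genes tested these fits called 8.81% to 15.3% lower and 9.99% to 14.6% higher in the HMLE-Twist response. In the HMLE-pBp response they called 5.84% to 13.4% higher and 3.88% to 13.7% lower, and in the difference 2.79% to 10.1% lower. Between the lines 33.3% to 36.3% were higher and 33.8% to 37.5% lower under mock, and 27.4% to 34.1% and 28.5% to 33.5% under salinomycin. As a share of summed FPKM the members held 15%, 13.8%, 10.1% and 10.3% in HMLE-Twist under mock, HMLE-Twist under salinomycin, HMLE-pBp under mock and HMLE-pBp under salinomycin. With reference lengths the paralog ratios in the same order were 7.26%, 6.44%, 14.7% and 11.8% for RPL26L1, 17.4%, 17.1%, 8.31% and 6.79% for RPL39L, 0.991%, 0.884%, 0.467% and 0.528% for RPS27L, and 2.18%, 2.25%, 2.57% and 2.04% for RPL7L1, and RPL22L1 moved to 57.1% in salinomycin-treated HMLE-Twist and 82% in mock HMLE-pBp. The order of the lines in these ratios does not depend on the length. On simulated data for HMLE-Twist the fit called 46.3% of genes changed 1.5-fold and 1.49% of those changed by 0.32 on the log2 scale. Few genes were changed there and all were given the same dispersion, so these rates are not those of the members. In the HMLE-Twist libraries RPL6 was called at -0.23 ± 0.06, while RPL26 was not called at -0.23 ± 0.09. A missing call thus does not show that a member did not respond.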
